A study of Mus musculus with 16 samples.

Results

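The striated muscle miRNAs described here are miR-1a, miR-133a, miR-133b, miR-206, miR-208a and miR-208b. The families were picked with earlier results of these data known, and their members were then found by name, without use of any value. In all, 7 of the 611 mouse miRNAs on the array carry these names, namely miR-1a-3p, miR-206-3p, miR-133a-3p, miR-133a-5p, miR-133b-3p, miR-208a-3p and miR-208b-3p. Their signals were measured in whole lungs of BALB/c mice, aged 8 to 12 weeks, in a model of allergic airways disease driven by ovalbumin (OVA, an egg white protein used as allergen). Total RNA was hybridised to 16 Agilent 1-colour arrays. The PBS/PBS group had 2 arrays, PBS/OVA and OVA/OVA DEX had 4 each and OVA/OVA had 6. The first term of a group's name gives the sensitisation and the other the challenge. All mice received 1 mg Alhydrogel, an aluminium adjuvant, on day 0, given with 50 μg OVA in OVA/OVA and OVA/OVA DEX and with PBS alone in PBS/PBS and PBS/OVA. Mice were challenged on days 12, 13, 14 and 15 through the nose, with PBS in PBS/PBS and with 10 μg OVA in the other groups, and lungs were taken 24 hours after the last challenge. OVA/OVA DEX mice were also given the glucocorticoid dexamethasone at 3 mg/kg from day 11, every second day. The labels do not say which animal each array came from, so the p-values measure the spread between these arrays only. The study's figure legend gives 6 animals per group, more than the arrays analysed here for every group except OVA/OVA.

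MiRNAs are short RNAs that guide the silencing complex to messenger RNAs, mainly through the seed, the stretch near their 5′ end. MiR-1 and miR-133 are made from shared primary transcripts in heart and skeletal muscle, where miR-1 favours differentiation of muscle cells and miR-133 their proliferation. MiR-206 and miR-133b form a related pair with its main site of expression in skeletal muscle, and miR-208a, miR-208b and miR-499 lie in introns of myosin heavy chain genes. A lung is not a striated muscle, but in mice a sleeve of cardiac muscle follows the pulmonary veins into the lung, and smooth muscle surrounds airways and vessels.

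The mature sequences show how some of the members relate. They are given 5′ to 3′ as in RefSeq on build GRCm38.p6, which held 4 of the 7 members, with the seed (bases 2 to 8) in capitals. MiR-1a-3p, miR-133a-3p and miR-133a-5p were not among these, so the miR-133 pair is not shown side by side. MiR-499-5p is added because its place in a myosin gene and its seed resemble those of miR-208.
miR-206-3p: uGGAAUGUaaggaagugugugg
miR-133b-3p: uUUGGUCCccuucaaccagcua
miR-208a-3p: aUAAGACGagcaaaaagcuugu
miR-208b-3p: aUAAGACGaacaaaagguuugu
miR-499-5p: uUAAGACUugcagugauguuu

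MiR-206-3p lies at chr1:20679055-20679076 and miR-133b-3p at chr1:20682834-20682855, both on the plus strand within the non-coding gene Lincmd1, and their hairpins are 3686 bases apart. MiR-208a-3p lies at chr14:54949072-54949093 inside Myh6, the alpha cardiac myosin heavy chain. MiR-208b-3p lies at chr14:54975710-54975731 inside Myh7, the beta cardiac and slow skeletal heavy chain, and both are on the minus strand. The pair miR-208a-3p and miR-208b-3p has the same seed and differs at 3 of 22 bases, G10A, A16G and C18U, counted from the 5′ end with the base of miR-208a-3p first. MiR-1a-3p and miR-133a-3p have one of their hairpin genes, Mir1a-1 and Mir133a-2, at chr2:180389048-180389124 and chr2:180398379-180398482, within the host gene Mir1a-1hg and 9254 bases apart. MiR-133a-3p and miR-133b-3p are nearly identical in sequence, so the signal of either may include the other and their values are not independent. MiR-208a-3p and miR-208b-3p may likewise share signal.

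Of the 7 miRNAs, 4 were detected on all 16 arrays by Feature Extraction, the software that read the scans. These were miR-1a-3p, miR-133a-3p, miR-133b-3p and miR-208b-3p. The opposite arm of the miR-133a hairpin, miR-133a-5p, was detected on 13 arrays, missing OVA/OVA replicates 2, 3 and 6. MiR-206-3p was detected on none of the 16 arrays, and its background-subtracted intensity lay between -9.34 and 8.05. MiR-208a-3p was detected on 2 arrays, PBS/PBS replicate 2 and OVA/OVA replicate 4. For comparison, the background-subtracted intensity of miR-1a-3p ran from 225 to 2302 on the OVA/OVA arrays. It was 2638 to 3491 in PBS/PBS, 1107 to 1841 under dexamethasone and 1477 to 2051 in PBS/OVA. MiR-499-5p, which marks heart and slow skeletal muscle, was detected on 0 of the 16 arrays. The miRNAs of heart and skeletal muscle were thus measured unevenly, with miR-1a, miR-133a, miR-133b and miR-208b above background throughout and miR-206, miR-499-5p and, on most arrays, miR-208a not. MiR-206-3p and miR-208a-3p did not pass the filter of detection on every array of a group, which left 5 of the 7 miRNAs in the 266 tested.

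Values below are log2 signals after each array was scaled to a common 75th percentile. The scale allows an array to be compared with another for 1 miRNA, but not the level of 1 miRNA with that of another. In whole-lung RNA, fewer muscle cells in a sample and less of a miRNA per cell cannot be told apart. The arrays differed in brightness. Before scaling, the summed signal of all mouse miRNAs was highest in PBS/PBS, with log2 values of 19.60 and 19.84. It was 18.93 to 19.29 in OVA/OVA DEX and 18.91 to 19.45 in PBS/OVA. In OVA/OVA it was 17.94, 18.13, 18.50 and 18.64 on replicates 6, 3, 5 and 2, below every array of the other groups, and 19.43 and 19.48 on replicates 1 and 4. Both PBS/PBS arrays lay on slide 1, whereas each of the 2 slides held arrays of the other groups.

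MiR-133a-3p was lower in allergic lungs than in any other group. Its log2 signal was 7.94 and 8.02 in PBS/PBS. It was 7.59, 7.96, 7.69 and 7.53 in PBS/OVA, in order of replicate, and 7.69, 7.30, 7.94 and 7.97 in OVA/OVA DEX. In OVA/OVA the lowest array had 6.15, the median was 6.90 and the highest array had 7.43. All 6 OVA/OVA arrays lay below both PBS/PBS arrays and all 4 PBS/OVA arrays, and 4 of them lay below all OVA/OVA DEX arrays. Within OVA/OVA, replicates 2, 3 and 6 were low, at 6.15 to 6.55, and replicates 1, 4 and 5 lay close to the lowest arrays of the other groups, at 7.25 to 7.43.

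MiR-133b-3p, its near twin, had 8.83 and 8.82 in PBS/PBS. The values were 8.55, 8.93, 8.63 and 8.38 in PBS/OVA and 8.53, 8.20, 8.93 and 8.94 in OVA/OVA DEX. In OVA/OVA they ran from 6.98 to 8.30 with a median of 7.80. The same 3 OVA/OVA arrays were low, at 6.98 to 7.48, and the group did not overlap PBS/PBS or PBS/OVA. The difference between miR-133b-3p and miR-133a-3p on an array was almost fixed, 0.80 to 0.99 over the 16 arrays, with a mean of 0.89 ± 0.06 (SD, n = 16).

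MiR-1a-3p, the partner of miR-133a in the shared transcript, had 10.75 and 10.87 in PBS/PBS. It had 10.36, 10.97, 10.60 and 10.53 in PBS/OVA and 10.16, 10.27, 11.06 and 10.90 in OVA/OVA DEX. In OVA/OVA the lowest, median and highest values were 8.75, 9.76 and 10.69. Replicates 3, 6 and 2 were again lowest, whereas replicates 4 and 5 overlapped PBS/OVA and OVA/OVA DEX. MiR-133a-5p, the arm of the hairpin that is usually the less abundant, had 4.80 and 4.74 in PBS/PBS, 4.65, 4.84, 4.55 and 4.46 in PBS/OVA and 4.00, 4.08, 5.29 and 4.41 in OVA/OVA DEX. Its 3 detected OVA/OVA arrays had 4.23, 4.91 and 4.34, and the 3 on which it was not detected had 2.76, 2.61 and 2.82.

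MiR-208b-3p, the miRNA of the slow myosin gene, moved over a narrower range. It had 5.96 and 6.02 in PBS/PBS and 5.87, 5.91, 6.14 and 6.03 in PBS/OVA. In OVA/OVA DEX it had 6.61, 6.18, 5.99 and 6.25, and in OVA/OVA it ran from 5.10 to 5.92 with a median of 5.39. All 6 OVA/OVA arrays lay below every OVA/OVA DEX array and below both PBS/PBS arrays. MiR-208a-3p, of the alpha myosin gene, had 3.26 on PBS/PBS replicate 2 and 3.07 on OVA/OVA replicate 4, where it was detected, and no difference between groups can be read from the arrays on which it was not.

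**Figure D1:**
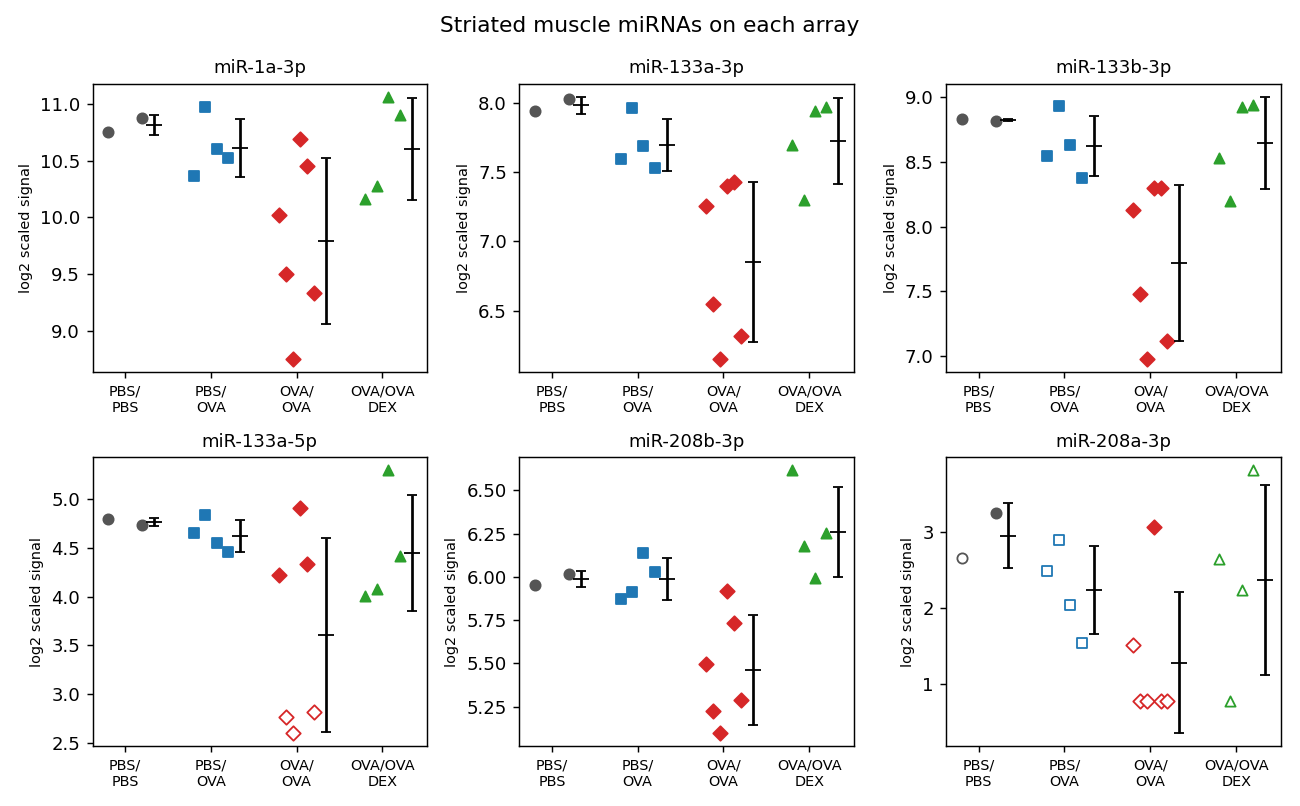
Log2 scaled signal (y axis) of 6 striated muscle miRNAs on each of the 16 arrays, by group (x axis), with open symbols where the miRNA was not detected and black bars for the mean ± SD of a group. For miR-133a-3p the 6 OVA/OVA arrays lie between 6.15 and 7.43, below both PBS/PBS arrays, and fall into a lower and an upper set of 3.

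The comparison of OVA/OVA with PBS/PBS asks how lungs with allergic inflammation differ from unchallenged lungs. MiR-133a-3p and miR-133b-3p were called lower, 2 of the 5 tested, where a call means an adjusted p under 0.05 in limma and a change of at least 2-fold. Of all 266 miRNAs tested, 9.77% were called in this comparison and 3.76% were called lower. MiR-133a-3p averaged 7.98 ± 0.06 (SD, n = 2) in PBS/PBS against 6.85 ± 0.58 (SD, n = 6) in allergic lungs, a log2 difference of -1.13 (SE 0.32, limma adjusted p = 0.0226), or 2.19-fold lower. MiR-133b-3p averaged 8.82 ± 0.01 (SD, n = 2) against 7.72 ± 0.60 (SD, n = 6), a difference of -1.11 (SE 0.34, limma adjusted p = 0.0328).

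The other tested members did not pass. MiR-1a-3p was at -1.02 (SE 0.42, limma adjusted p = 0.0830), 2.03-fold lower. MiR-133a-5p was at -1.16 (SE 0.55, limma adjusted p = 0.131), and its spread in OVA/OVA was widest at 0.99 (SD, n = 6). MiR-208b-3p differed by -0.53 (SE 0.20, limma adjusted p = 0.0615). All 5 differences were below 0, as were 53.0% of those of all tested miRNAs, and the median of the 5 was -1.11 against -0.02 for the 266. The arrays of the 2 groups did not overlap for 4 of the 5, with miR-133a-5p the exception, and for 25.6% of the 266, counting miRNAs that were lower in OVA/OVA.

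The calls depended on single arrays. With any 1 array left out, the difference of miR-133a-3p stayed between -1.25 and -0.99 and that of miR-133b-3p between -1.22 and -0.96. Neither miR-133a-3p nor miR-133b-3p was called without PBS/PBS replicate 1 or 2, which left 1 array in that group. Without OVA/OVA replicate 3 both stayed under the p threshold but fell short of 2-fold, at -0.99 and -0.96, and miR-133b-3p alone also missed the call without OVA/OVA replicate 2 (limma adjusted p = 0.0582) or replicate 6 (limma adjusted p = 0.0524). Without OVA/OVA replicate 4, the array with the highest miR-1a-3p of its group, miR-1a-3p at -1.20 (limma adjusted p = 0.0308) and miR-133a-5p at -1.42 (limma adjusted p = 0.0377) were called as well. MiR-1a-3p was also called without OVA/OVA replicate 5, at -1.15 (limma adjusted p = 0.0481).

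Slide and brightness moved with this comparison. With the slide as a block, the differences of miR-133a-3p and miR-133b-3p were -1.02 (limma adjusted p = 0.0519) and -0.97 (limma adjusted p = 0.0696). On slide 1, which held 2 arrays of each group, the differences were -1.08 and -1.02. With the brightness of the array as a covariate they were -0.61 (limma adjusted p = 0.406) and -0.55 (limma adjusted p = 0.480), and the part of brightness in the result was not tested further. Normexp background correction, with an offset of 50 added to every spot, moved the median difference of all tested miRNAs to 0.54. MiR-133a-5p and miR-208b-3p turned to 0.70 and 0.49, while miR-1a-3p, miR-133a-3p and miR-133b-3p stayed below 0. The 2 that turned are dim beside 50 for each of their 2 probes. On the OVA/OVA arrays their background-subtracted intensities were 3.18 to 41.8 and 17.9 to 84.4. What the offset did to these signs was not tested. With quantile normalization miR-133b-3p was no longer called (-1.26, limma adjusted p = 0.0527), while miR-133a-5p at -1.61 and miR-208b-3p at -1.11, more than 2 times its difference of -0.53, were called (limma adjusted p = 0.0492 for both).

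Setting OVA/OVA against PBS/OVA asks what sensitisation adds to the challenge. MiR-133a-3p, miR-133b-3p and miR-208b-3p were lower at an adjusted p under 0.05, 3 of the 5 tested, as were 16.9% of the 266, but each changed less than 2-fold. No member was called, against 5.26% of all tested miRNAs. MiR-133a-3p averaged 7.69 ± 0.19 (SD, n = 4) in PBS/OVA and was lower by 0.84 in OVA/OVA, a difference of -0.84 (SE 0.25, limma adjusted p = 0.0249). The difference of miR-133b-3p was -0.90 (SE 0.27, limma adjusted p = 0.0249) and that of miR-208b-3p was -0.53 (SE 0.16, limma adjusted p = 0.0235).

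MiR-1a-3p differed by -0.82 (SE 0.33, limma adjusted p = 0.0713) and miR-133a-5p by -1.02 (SE 0.43, limma adjusted p = 0.0888), neither past the threshold. The arrays did not overlap for miR-133a-3p and miR-133b-3p, 2 of the 5, and for 9.02% of the 266 in the same direction. Both slides held these groups, and the 5 differences lay between -1.20 and -0.66 on slide 1 and between -0.89 and -0.44 on slide 2. Without OVA/OVA replicate 4, miR-1a-3p, miR-133a-5p and miR-133b-3p were called, at -1.002, -1.27 and -1.02, and without replicate 5 miR-133b-3p was called at -1.02. The adjusted p of the 3 miRNAs rose above 0.05 when PBS/OVA replicate 3 was left out (limma adjusted p = 0.0615, 0.0617 and 0.0747 for miR-133a-3p, miR-133b-3p and miR-208b-3p) or OVA/OVA replicate 2 (0.0525, 0.0520 and 0.0515), that of the miR-133 pair also without PBS/OVA replicate 2 (0.0507 and 0.0516) and that of miR-208b-3p without PBS/OVA replicate 4 (0.0527). With brightness as a covariate the differences of miR-133a-3p and miR-208b-3p were -0.59 (limma adjusted p = 0.113) and -0.36 (limma adjusted p = 0.109), and normexp turned miR-133a-5p to 0.32 and miR-208b-3p to 0.20, beside a median of 0.30 for all tested miRNAs.

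The comparison of OVA/OVA with OVA/OVA DEX asks how lungs of allergic mice differed with and without the glucocorticoid. MiR-208b-3p had its largest difference here, with a mean of 6.26 ± 0.26 (SD, n = 4) under dexamethasone against 5.46 ± 0.32 (SD, n = 6) without it. That is a log2 difference of -0.80 (SE 0.16, limma adjusted p = 0.00115), or 1.74-fold lower without dexamethasone. MiR-133a-3p was lower by a difference of -0.88 (SE 0.25, limma adjusted p = 0.0121) and miR-133b-3p by one of -0.93 (SE 0.27, limma adjusted p = 0.0124).

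In this comparison 3 of 5 members were thus lower at the adjusted p alone, beside 32.3% of the 266, and 0 were called with the 2-fold requirement, beside 12.8%. MiR-1a-3p (-0.81, SE 0.33, limma adjusted p = 0.0524) and miR-133a-5p (-0.84, SE 0.43, limma adjusted p = 0.118) did not pass. The arrays did not overlap for 1 of the 5, miR-208b-3p, and for 16.5% of the 266. On slide 1 the difference of miR-208b-3p was -1.07 and on slide 2 it was -0.57, while that of miR-133a-3p was -0.93 and -0.80. Differences past 2-fold, and so calls, appeared when 1 array was left out. MiR-133b-3p was called without OVA/OVA replicate 1, 4 or 5 or OVA/OVA DEX replicate 2, at -1.01 to -1.08, miR-133a-5p without OVA/OVA replicate 4 at -1.10, and miR-133a-3p without OVA/OVA DEX replicate 2 at -1.02. With brightness as a covariate miR-208b-3p differed by -0.66 (limma adjusted p = 0.00371), miR-133a-3p by -0.67 (limma adjusted p = 0.0389) and miR-133b-3p by -0.71 (limma adjusted p = 0.0400). With normexp, whose offset is large beside the signals of these miRNAs, miR-208b-3p differed by -0.03 (limma adjusted p = 0.912). MiR-133a-5p turned to 0.19, beside a median of 0.16.

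The remaining comparisons leave out the OVA/OVA group. Between PBS/OVA and PBS/PBS, which asks what the challenge does without sensitisation, the differences were -0.20 (SE 0.44) for miR-1a-3p, -0.29 (SE 0.34) for miR-133a-3p and 0.00 (SE 0.21) for miR-208b-3p. Between OVA/OVA DEX and PBS/PBS they were -0.21 (SE 0.44), -0.25 (SE 0.34) and 0.27 (SE 0.21). No member had a limma adjusted p under 0.729 in either comparison, and 0 of 5 were called, beside 0.376% and 0.0% of the 266. The unadjusted limma p was under 0.05 for 0 of the 5 in both. With SEs of this size these comparisons do not show that the groups were alike, and the signs of miR-208b-3p turned with the scaling. All 5 comparisons draw on the same 16 arrays, those of OVA/OVA on the same 6 allergic arrays, so their differences are not independent.

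**Figure D2:**
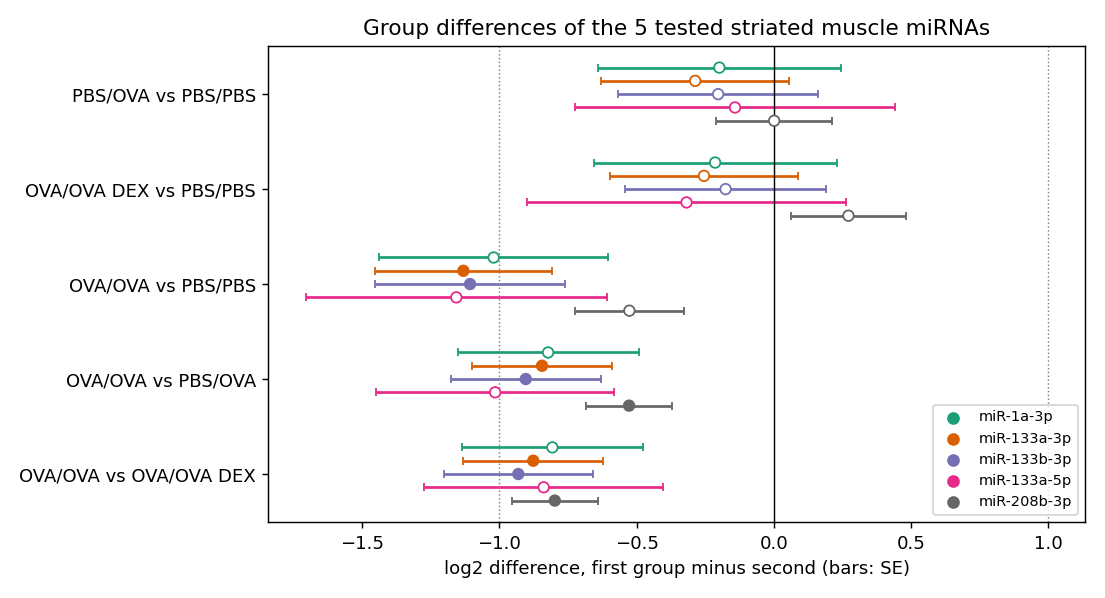
Log2 difference (x axis, first group minus second, bars are SE) of the 5 tested striated muscle miRNAs in the 5 comparisons (y axis), with filled symbols at a limma adjusted p under 0.05 and dotted lines at a 2-fold change. Differences that involve OVA/OVA lie between -1.16 and -0.53, and the others between -0.32 and 0.27.

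Across the 4 groups, the limma F-test passed for miR-208b-3p (adjusted p = 0.00560), miR-133a-3p (adjusted p = 0.0154) and miR-133b-3p (adjusted p = 0.0181). It did not for miR-1a-3p (adjusted p = 0.0793) or miR-133a-5p (adjusted p = 0.138), and 44.0% of the 266 miRNAs passed. The order of the group means of miR-1a-3p and the miR-133 arms ran from PBS/PBS, the highest, to OVA/OVA, the lowest. In miR-1a-3p PBS/PBS had 10.81 ± 0.09 (SD, n = 2), PBS/OVA had 10.61 ± 0.26 (SD, n = 4), OVA/OVA DEX had 10.60 ± 0.45 (SD, n = 4) and OVA/OVA had 9.79 ± 0.73 (SD, n = 6). OVA/OVA DEX, PBS/OVA and PBS/PBS were neighbours that did not differ beyond their spread. MiR-208b-3p had another order, with OVA/OVA DEX highest and PBS/OVA and PBS/PBS both at 5.99.

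The 4 miRNAs were uneven within the OVA/OVA group, and the arrays that were low for one of the miRNAs were low for the rest. Over the 16 arrays, miR-1a-3p correlated with miR-133a-3p at Pearson r = 0.953 and Spearman rho = 0.871 (permutation p = 1e-05, the smallest that 100000 permutations can give, and 5e-05). MiR-1a-3p and miR-133b-3p had r = 0.958 and rho = 0.906 (permutation p = 1e-05 for both). MiR-133a-3p and miR-133b-3p had r = 0.996 and rho = 0.962 (permutation p = 1e-05 for both). The 6 pairs of the 4 miRNAs detected on all arrays were compared, and adjusted over these pairs the Pearson p was 2e-05 for the 3 pairs just named.

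MiR-208b-3p followed less closely. Its r was 0.728 with miR-1a-3p (rho = 0.503), 0.812 with miR-133a-3p (rho = 0.644) and 0.798 with miR-133b-3p (rho = 0.597), with adjusted permutation p of 0.00151, 0.000408 and 0.000408 for r and 0.0498, 0.0128 and 0.0196 for rho. Without the 2 arrays farthest from the median of miR-1a-3p, the r of miR-1a-3p was 0.466 with miR-208b-3p (adjusted permutation p = 0.0939) and 0.894 with miR-133a-3p. With 2 arrays left out in the same way for miR-133a-3p or miR-133b-3p, r with miR-208b-3p was 0.646 and 0.616 (adjusted permutation p = 0.0256 and 0.0277). Leaving out the farthest arrays also narrows the range, so the lower r does not show that a relation rests on them. After removal of the group means, r was 0.929 for miR-1a-3p with miR-133a-3p and 0.536 for miR-1a-3p with miR-208b-3p. Within slide 1 the same values were 0.947 and 0.544, and within slide 2 they were 0.970 and 0.884, each over 8 arrays. By rank, rho was 0.881 and 0.333 on slide 1 (adjusted permutation p = 0.0222 and 0.429) and 0.786 and 0.548 on slide 2 (adjusted permutation p = 0.0573 and 0.242), so on slide 2 neither pair passed by rank. On slide 1 the 3 pairs with miR-208b-3p did not pass (adjusted permutation p = 0.0588 to 0.165), and with normexp values r between miR-1a-3p and miR-208b-3p was -0.492.

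**Figure D3:**
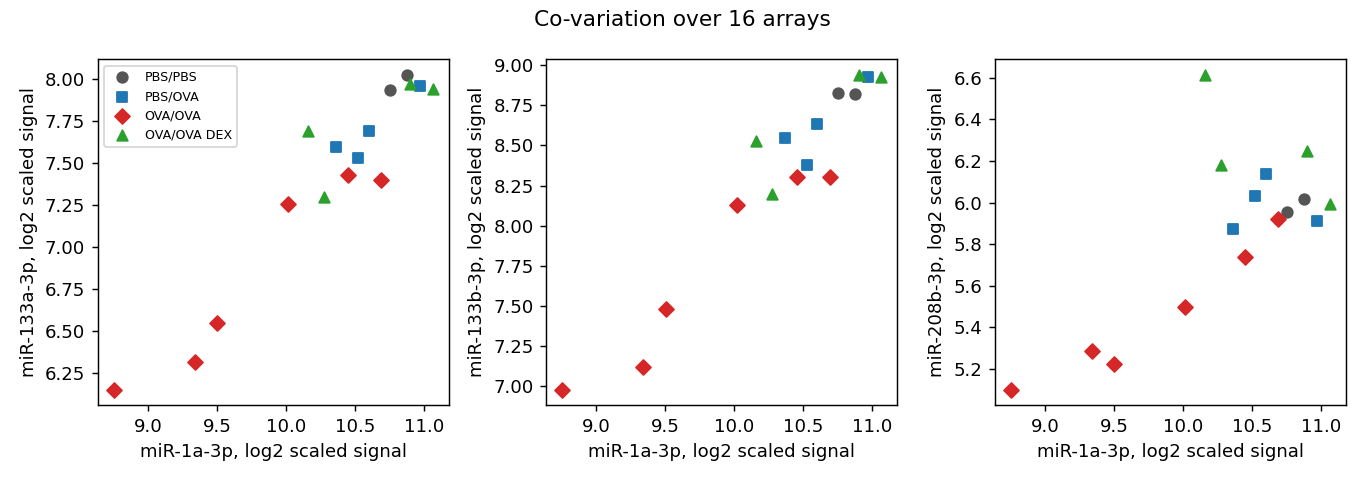
Log2 scaled signal of miR-133a-3p, miR-133b-3p and miR-208b-3p (y axes) against that of miR-1a-3p (x axis) on the 16 arrays, marked by group. The first pair of panels are close to a line (r = 0.953 and 0.958), with 3 OVA/OVA arrays at the low end, and miR-208b-3p is more scattered (r = 0.728).

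Of 202 other miRNAs detected on all arrays, those whose log2 signal was most like the mean of these 4 over the 16 arrays were miR-152-3p (r = 0.845), miR-195-5p (r = 0.836), miR-100-5p (r = 0.820), miR-24-3p (r = 0.812) and miR-10b-5p (r = 0.811). These values are a description over arrays that share groups, slides and brightness. The 5 differed between OVA/OVA and PBS/PBS by less than the members did, from -0.29 for miR-152-3p to -0.40 for miR-195-5p. After removal of the group means their r was 0.480 to 0.607.

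The spread between arrays of a group was wide for a signal of this strength. The residual SD of miR-1a-3p was 0.54, rank 13 from the largest among the miRNAs detected on all arrays, whose median was 0.17. MiR-133b-3p at 0.44 was rank 24, miR-133a-3p at 0.41 was rank 26 and miR-208b-3p at 0.25 was rank 59. Among all 266 tested miRNAs, miR-208b-3p was rank 117, near the middle. The SD of miR-1a-3p was 0.73 in OVA/OVA and 0.45 under dexamethasone, against 0.26 in PBS/OVA and 0.09 in PBS/PBS.

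**Figure D4:**
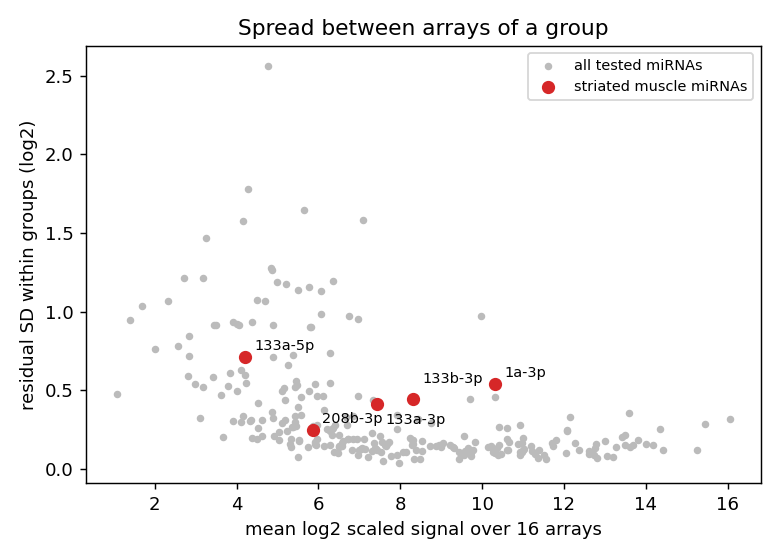
Residual SD within groups (y axis, log2) against the mean log2 scaled signal over 16 arrays (x axis) for the 266 tested miRNAs in grey and the 5 striated muscle miRNAs in red. MiR-1a-3p, with a residual SD of 0.54, stands above most miRNAs of similar signal.

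The low OVA/OVA arrays were also dim. The mean deviation of the 4 miRNAs from their 16-array means was -1.23, -0.97 and -0.79 on OVA/OVA replicates 3, 6 and 2, whose log2 summed signals were 18.13, 17.94 and 18.64. Replicate 5, at 18.50, was dimmer than replicate 2 but brighter than replicates 3 and 6, and had a deviation of -0.00069, while the brighter replicates 1 and 4 had -0.26 and 0.10. Over 16 arrays the r of brightness with the 4 miRNAs was 0.627 to 0.729 and the rho 0.350 to 0.465, with adjusted permutation p of 0.00614 to 0.00990 for r and 0.185 for each rho. Without the 2 arrays farthest from the median brightness r was 0.228 to 0.362, and over the 10 arrays outside OVA/OVA it was -0.184 to 0.044. Over the 6 OVA/OVA arrays r was 0.666 to 0.788 (adjusted permutation p = 0.158 to 0.170) and rho 0.600 to 0.771. After removal of the group means r was 0.467 to 0.600 over the 16 arrays, with an adjusted permutation p of 0.0403 for 3 of the 4 miRNAs and 0.0686 for miR-1a-3p, and rho was 0.147 to 0.518 (adjusted permutation p = 0.169 to 0.587). Within slide 1 r was 0.295 to 0.522 and within slide 2 it was 0.750 to 0.870. The part of brightness in the difference between OVA/OVA and the other groups was not tested beyond the covariate fit above.

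**Figure D5:**
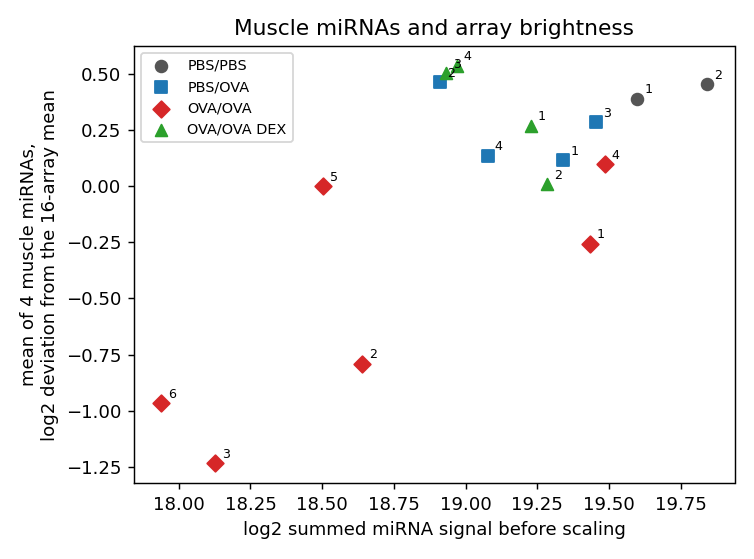
Mean log2 deviation of miR-1a-3p, miR-133a-3p, miR-133b-3p and miR-208b-3p from their 16-array means (y axis) against the log2 summed miRNA signal of the array before scaling (x axis), with replicate numbers beside the points. OVA/OVA replicates 2, 3 and 6 are both dim and low, from -0.79 to -1.23, and replicate 5, whose brightness lies between those of replicates 2 and 3, has a deviation of -0.00069.

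Whether the miRNAs changed by unequal amounts was tested on their differences within an array. The difference between miR-133a-3p and miR-1a-3p within an array averaged -2.94 ± 0.24 (SD, n = 6) in OVA/OVA against -2.83 ± 0.03 (SD, n = 2) in PBS/PBS, a change of -0.11 (two-sided exact permutation p = 0.571). The largest change of such a difference was that of miR-208b-3p against miR-133a-3p, which was 0.60 above PBS/PBS in OVA/OVA (two-sided exact permutation p = 0.0714, adjusted p = 0.533 over 20 tests). None of the 20 tests passed after adjustment. For 2 arrays against 6 the smallest p this test allows is 0.0357, and for the other comparisons with PBS/PBS it is 0.0667. Adjusted over the 20 tests, such p-values cannot fall under 0.05, so the tests against PBS/PBS could not pass and decide nothing. For OVA/OVA against PBS/OVA or OVA/OVA DEX the smallest p is 0.00476, and the lowest adjusted p found there was 0.533.

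Each member was measured by 2 probes of 10 spots each. In the 3 comparisons of the OVA/OVA group, both probes of a miRNA gave a difference of the same sign in 15 of 15 cases. For miR-133b-3p the probes gave -1.09 and -1.11 against PBS/PBS, and for miR-1a-3p they gave -1.08 and -1.01. They were farthest apart for miR-133a-5p, at -1.67 and -0.92, the dimmest member that was tested.

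Other miRNAs known from striated muscle or its stem cells did not share 1 direction. Of 16 such miRNAs on the array, 12 were tested, and in OVA/OVA against PBS/PBS 1 was called higher and 2 lower, beside 9.77% of the 266 called in either direction. Their median was -0.18 against -0.02 for all 266. MiR-486, also of this list, had no row under that name, and whether the array holds it under another name was not examined. The study lists miR-486-5p among the miRNAs altered on its arrays, so the counts here leave out a miRNA that it measured. MiR-378-3p, which lies in the gene of the metabolic coactivator PGC-1β, rose by 1.12 (SE 0.20, limma adjusted p = 0.00221). MiR-489-3p, known from quiescent satellite cells, differed by -2.03 (SE 0.71, limma adjusted p = 0.0494) and was detected on 2 of 6 OVA/OVA arrays. MiR-31-3p differed by -1.01 (SE 0.24, limma adjusted p = 0.0108) and was likewise detected on 2 of 6 OVA/OVA arrays. Of the 12, 1 was called higher and 2 were called lower against PBS/OVA too, beside 5.26% of the 266 called in either direction. Against OVA/OVA DEX 1 was called higher and 1 lower, beside 12.8% called. MiR-499-5p, miR-181a-2-3p and miR-27b-5p were detected on no array. The summed scaled signal of the 12 was 26241 to 29789 in OVA/OVA, 28926 to 29534 in PBS/PBS, 27271 to 31382 in PBS/OVA and 30054 to 36438 under dexamethasone. The groups overlapped except OVA/OVA DEX with PBS/PBS and OVA/OVA. MiR-22-3p and miR-26a-5p made up most of this sum, so it says little of the rest of the 12.

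Markers of other cells in the lung moved with the groups, and their part in the members' differences was not tested. Of the smooth muscle miRNAs miR-143-3p, miR-145-3p and miR-145-5p, 0 of 3 passed an adjusted p of 0.05 in limma in OVA/OVA against PBS/PBS or PBS/OVA, with differences of -0.30 to -0.03. Of the 266, 12.4% and 16.9% were lower at that threshold in these comparisons. Against OVA/OVA DEX 3 of the 3 smooth muscle miRNAs were lower, at -0.70 to -0.31, beside 32.3% of the 266. Their summed scaled signal was 2310 to 2822 in OVA/OVA, 2712 to 2921 in PBS/PBS, 2489 to 2829 in PBS/OVA and 2791 to 3641 under dexamethasone. The endothelial miRNAs miR-126-3p and miR-126-5p differed by -0.22 and -0.54 from PBS/PBS and did not pass. Both were lower at an adjusted p under 0.05 in OVA/OVA against PBS/OVA, at -0.24 (limma adjusted p = 0.0407) and -0.54 (limma adjusted p = 0.0277), beside 16.9% of the 266. Both were also lower against OVA/OVA DEX, at -0.30 (limma adjusted p = 0.00850) and -0.88 (limma adjusted p = 0.000958), beside 32.3%. Their summed signal was 30626 to 40948 in OVA/OVA, 41642 to 43008 in PBS/PBS, 38261 to 46746 in PBS/OVA and 40792 to 48573 under dexamethasone. Of 5 tested miRNAs of blood and immune cells, 2 were called higher in allergic lungs than in PBS/PBS, beside 9.77% of the 266 called in either direction. They were miR-155-5p at 1.99 (SE 0.34, limma adjusted p = 0.00184) and miR-223-3p at 1.22 (SE 0.20, limma adjusted p = 0.00112). The summed signal of the 5 was 32421 to 48099 in OVA/OVA, above the 20467 to 23008 of PBS/PBS, the 15745 to 23711 of PBS/OVA and the 18168 to 26816 under dexamethasone. MiR-150-3p was detected on no array.

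MiR-451 and miR-144-3p, of red cells, differed by -0.50 and -0.45 from PBS/PBS without passing. Both were called lower in OVA/OVA than in OVA/OVA DEX, at -1.04 and -1.06, beside 12.8% of the 266 called in either direction. Their summed signal was 37072 to 70602 in OVA/OVA, 72905 to 79598 in PBS/PBS, 47971 to 87446 in PBS/OVA and 100325 to 136429 under dexamethasone. Of 8 tested epithelial miRNAs 0 were called in OVA/OVA against PBS/PBS, beside 9.77% of the 266 called in either direction. At an adjusted p under 0.05 alone 1 of the 8 was higher, beside 25.6% of the 266 in either direction. It was miR-200c-3p, at 0.36 (limma adjusted p = 0.0172). The median of the 8 was -0.06 and their summed signal was 8606 to 10512 over the 16 arrays. That sum was higher on every OVA/OVA array, at 9191 to 9810, than in PBS/PBS, at 9059 to 9076. Of 6 tested miRNAs of ciliated epithelium 1 was called lower against PBS/PBS, beside 3.76% of the 266 called lower. It was miR-34c-3p, at -1.07, and the median of the 6 was -0.35. Without the 2-fold requirement 3 of the 6 were lower at an adjusted p under 0.05, beside 12.4% of the 266. The list went both ways, with miR-449a-5p at 0.96 (limma adjusted p = 0.0550) and miR-449c-5p at 1.08 (limma adjusted p = 0.379) in that comparison. Against OVA/OVA DEX both were called higher, beside 12.8% of the 266 called in either direction. The differences were 2.04 for miR-449a-5p (limma adjusted p = 9.08e-05) and 3.01 for miR-449c-5p (limma adjusted p = 0.00512). The summed signal of the 6 was 3651 to 5419 over the 16 arrays. MiR-200c-5p and miR-449b were detected on no array.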

How the data were processed

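The authors deposited the Feature Extraction 10.7.3.1 output of each of 16 Agilent arrays (13000 spots without controls, 0 of them saturated), with the background-subtracted intensity of every spot and detection flags, not normalized between arrays. They also deposited processed log2 values, whose scaling is not given in the sources used here and which were matched to 151 miRNAs, 3 of the 7 described, within 0.15 on the log2 scale. Control and outlier spots were left out, spots averaged per probe, and probes summed per miRNA. The 75th percentile of an array, taken over miRNAs that every array detected, was set to 1704. Scaled signals were floored at 1.71 before the log2. A limma 3.58.1 fit (R 4.3.3) of the 4 group means used all arrays and no covariate, and p-values were adjusted by Benjamini-Hochberg over 266 mouse miRNAs, those that at least 1 group detected throughout. Permutation tests used Python 3.11.15. On simulated data, 50 of the 266 were changed in the allergic group, each by more than any of the 5 tested members differed. The simulated spread of a miRNA was the same in all groups. The limma fit recovered 82.4% (PBS/PBS as control), 88.3% (PBS/OVA) and 88.7% (OVA/OVA DEX). Recovery of differences with the size and uneven spread of those of the striated muscle miRNAs was not tested.

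The miRNA families, whose 7 members were then found by name, the lists of cell type miRNAs and the tests were chosen with earlier results of these data known. The miRNAs named are these 7, the measured miRNAs of the lists, and the 5 others most like their mean profile. Alternatives were other scalings, normexp background correction (applied to the median spot signal with an offset of 50), the Feature Extraction gene signal, other filters, floors, tests and thresholds, the processed values, slide or replicate number as a block, only the compared groups, and each array left out. Leaving out 1 PBS/PBS array assumes that the other varies like the rest. Brightness as a covariate was chosen after seeing the data. The number of arrays limits the precision. Experiments of the study other than the arrays were not analysed here.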

Additional observations from a re-analysis of the deposited data

How the results depend on the processing

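The number of miRNAs called in OVA/OVA against PBS/PBS, 2, was 5 with the 75th percentile over all mouse miRNAs or no scaling between arrays. With quantile normalization it was 3, of which miR-133a-3p was the only one also called in the reported fit. It was 1 with the deposited processed values, which hold 3 of the tested members. It was 0 with normexp, no detection filter, the slide as a block, only the compared groups in the fit or brightness as a covariate. When 1 array was left out it was 0 to 4. The exact Mann-Whitney test also gave 0, but for 2 arrays against 6 its p cannot fall under 0.05, so that count was fixed in advance. Against PBS/OVA the 0 calls became 3 without the 2-fold requirement, 2 with the percentile over all miRNAs, 1 with quantile normalization and 0 to 3 when 1 array was left out. Against OVA/OVA DEX they became 3, 4, 2 and 0 to 2. The F-test count of 3 was 5 with the percentile over all miRNAs, 1 with normexp or brightness, and 3 to 5 when 1 array was left out. Of 6 correlated pairs, 3 passed with normexp and 3 within slide 1. The cause of these shifts was not tested.

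With the replicate number as a block, 1 miRNA was called in OVA/OVA against PBS/PBS and 1 passed the F-test. Deviations of same-numbered arrays from their group means correlated at -0.594 to 0.377. In groups this small that does not settle whether the numbers pair the arrays. The block turned the difference of miR-208b-3p between PBS/OVA and PBS/PBS, of size 0.0011, to -0.0099.

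Signs turned mainly where differences were small. Between PBS/OVA and PBS/PBS, miR-208b-3p was -0.29 with the percentile over all miRNAs and with quantile normalization, -0.58 without scaling, -0.0250 with the processed values and -0.0487 to 0.0392 when 1 array was left out. Between OVA/OVA DEX and PBS/PBS it was -0.0425 with that percentile, -0.060 with quantile normalization and -0.53 without scaling. With normexp miR-133a-5p turned to 0.38 and 0.51 in these comparisons and to 0.70, 0.32 and 0.19 when OVA/OVA was set against PBS/PBS, against PBS/OVA or against the dexamethasone group, and miR-208b-3p to 0.49 and 0.20 in the first pair of these. With brightness as a covariate, miR-1a-3p, miR-133a-5p and miR-133b-3p turned to 0.0956, 0.34 and 0.0778 between PBS/OVA and PBS/PBS, and to 0.13, 0.25 and 0.15 between OVA/OVA DEX and PBS/PBS, where miR-133a-3p turned to 0.0585. The median difference of all tested miRNAs in OVA/OVA against PBS/PBS was -0.02, and it was -1.11 without scaling, -0.56 with the percentile over all miRNAs, -0.19 after quantile normalization and 0.54 after normexp. Relative to that median, the median of the 5 miRNAs lay below it in each. MiR-206-3p and miR-208a-3p lie too near background on these arrays to show a difference.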
